A study of Mus musculus with 14 samples.

Results

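The 10 genes described here belong to the Notch pathway: the receptors Notch1, Notch2, Notch3 and Notch4, the ligands Jag1 and Dll4, and the target genes Hes1, Hes5, Hey1 and Hey2. They were taken by gene symbol from the 55335 genes counted in dissociated mouse spinal cord, and all 10 symbols were found. They were chosen by symbol, with measured levels by cell class and group from an earlier analysis of these data in view and with no threshold. Their levels by cell class are therefore given as a description and carry no test, and the tests between groups are on genes picked with results known.

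Whole spinal cords were dissociated with enzymes at 37 °C, cleared of myelin with beads and sequenced as single cells with a 10x Genomics 3′ kit. The 14 libraries came from 4 groups of mice aged P115-120 (days after birth), a stage the study calls mid-disease. The study asked what the myeloid receptor Clec7a does in the microglial response in amyotrophic lateral sclerosis (ALS). The first group, nTg (3 libraries), is called WT in the study's design text and carried neither alteration. Clec7a-KO mice (4 libraries; strain label B6.129S6-Clec7atm1Gdb/J) lack the gene. SOD1G93A mice (3 libraries; strain label B6SJL-Tg(SOD1*G93A)1Gur/J) carry a mutant human SOD1 transgene and are a widely used ALS model. SOD1G93A/Clec7a-KO mice (4 libraries) carry both alterations. The strain labels name different backgrounds for the Clec7a-KO and SOD1G93A lines and none for nTg, so transgene and background cannot be told apart here. The labels do not say that each library came from a separate animal, and p-values measure the spread between these libraries.

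Notch receptors are surface proteins that are cut when a ligand of the Jagged or Delta-like family on a neighbouring cell binds them. The freed intracellular part enters the nucleus, joins the DNA-binding protein Rbpj and switches on Hes and Hey genes, which encode basic helix-loop-helix repressors. In the nervous system the pathway is known for keeping glial and ependymal progenitors undifferentiated, and in vessels for arterial identity and for the attachment and maturation of mural cells.

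In GRCm38 coordinates of the GENCODE vM21 annotation, all 10 are protein-coding genes, and the values below are gene totals without regard to exon or UTR. Notch1 lies at chr2:26457903-26516663, Notch2 at chr3:98013527-98150361, Notch3 at chr17:32120820-32166852 and Notch4 at chr17:34564268-34588503. Jag1 lies at chr2:137081456-137116644 and Dll4 at chr2:119325784-119335962. Hes1 lies at chr16:30064384-30067796, Hes5 at chr4:154960923-154962371, Hey1 at chr3:8663359-8667256 and Hey2 at chr10:30832359-30842801.

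Rbpj binds the letters GTGGGAA, and this motif was searched on both strands in the 250 bases before each gene's start (RefSeq, GRCm38.p6). Promoters of 8 of the 10 genes were in the table used (Hes1 and Hey1 were not), and 2 of these 8 held the motif, against 1461 of 27025 promoters (5.41%) in the whole table. These 2 are printed because they belong to target genes of the pathway. Capitals mark the motif, which reads TTCCCAC where it lies on the reverse strand.
Hes5 promoter (chr4:154960673-154960922, plus strand): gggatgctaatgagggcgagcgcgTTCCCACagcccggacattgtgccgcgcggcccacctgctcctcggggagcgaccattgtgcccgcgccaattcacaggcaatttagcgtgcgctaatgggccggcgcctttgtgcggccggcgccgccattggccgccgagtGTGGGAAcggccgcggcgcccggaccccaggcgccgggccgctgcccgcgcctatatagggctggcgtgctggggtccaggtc
Hey2 promoter (chr10:30842784-30843033, minus strand): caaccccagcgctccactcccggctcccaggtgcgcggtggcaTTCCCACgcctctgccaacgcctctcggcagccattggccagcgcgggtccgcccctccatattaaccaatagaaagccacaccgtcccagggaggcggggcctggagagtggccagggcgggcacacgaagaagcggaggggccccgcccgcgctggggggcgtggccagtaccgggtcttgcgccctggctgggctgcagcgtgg
In Hes5 the motif starts 226 bases before the gene's start on the reverse strand and again 83 bases before it on the forward strand. In Hey2 it starts 207 bases before the gene's start on the reverse strand. A match is a description of the letters and not evidence of binding.

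After removal of shallow, damaged and doublet barcodes, 90018 of 108892 barcodes were kept, 2566 to 10312 per library, and the deposited total was 2.88e+07 to 1.41e+08 unique molecular identifiers (UMIs) per library. Clec7a, the deleted gene, had 755 to 1767 UMIs in the nTg libraries and 57449 to 101134 in the SOD1G93A libraries. It had 33 to 110 in Clec7a-KO and 74 to 240 in SOD1G93A/Clec7a-KO. Sod1 had 4195 to 23013 UMIs in the 7 libraries without the transgene and 98593 to 433164 in the 7 with it, so both sets of labels matched. The 91 pairs of libraries shared 2 to 44 barcodes each (0.0466 to 0.474% of the smaller library). In 4 libraries Xist exceeded Ddx3y (nTg replicates 1 and 3, Clec7a-KO replicate 3 and SOD1G93A/Clec7a-KO replicate 4), none of them SOD1G93A. Microglia gave 27.7 to 45.9% of the UMIs of libraries without the transgene and 78.8 to 87.1% with it.

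Cells were clustered and the clusters were named from marker lists. The classes used here were 52431 microglia-like, 11844 endothelial-like, 7710 ependymal-like, 5864 astrocyte-like, 3939 oligodendrocyte precursor-like (OPC) and 1736 mural-like cells, called by those names without "like" from here on. All 12 microglia markers were detected in the microglia, but a microglial cluster of 4019 cells was led against the rest by genes of red cells and granulocytes. All 11 ependymal and all 11 astrocyte markers were detected in every cluster of those classes. In SOD1G93A/Clec7a-KO replicate 4 there were 34 astrocytes and 28 ependymal cells, the fewest of astrocytes and of ependymal cells in any library. Counts were summed per library and class, and a level is given in counts per 1000000 UMIs of that class (CPM), scaled by TMM. Levels are compared between cells for 1 gene at a time and not between genes.

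The 4 receptors had different orders of level across the 6 classes, described here over all 14 libraries (mean ± SD, n = 14). Notch1 was at 304.8 ± 75.8 CPM in mural cells, 240.5 ± 55.1 in endothelium, 162.4 ± 27.7 in OPC, 108.5 ± 24.0 in astrocytes, 94.3 ± 11.9 in ependymal cells and 61.3 ± 11.2 in microglia. Each class overlapped in range with the next, so Notch1 had no step in its order. Notch2 was at 58.3 ± 13.7 CPM in astrocytes, 37.4 ± 11.5 in microglia, 36.5 ± 9.99 in ependymal cells and 34.6 ± 15.97 in mural cells. It was at 9.49 ± 5.02 CPM in OPC and 8.23 ± 2.19 in endothelium, and neighbouring classes again overlapped in range.

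Notch3, the receptor of pericytes and vascular smooth muscle, was at 884.5 ± 160.8 CPM in mural cells, where the lowest library held 704.8. It was at 36.2 ± 8.93 CPM in astrocytes, 10.3 ± 3.93 in endothelium and at most 0.965 on average in ependymal cells, OPC and microglia. Mural cells, astrocytes, endothelium and ependymal cells followed each other without overlap of their ranges. Notch4, the receptor known from endothelium, was at 92.3 ± 9.17 CPM there and 22.6 ± 9.85 in mural cells, with no overlap. Its mean was 5.91 CPM in astrocytes and 3.47 in ependymal cells.

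Of the ligands, Dll4 was highest in endothelium among these 6 classes. Endothelial Dll4 was at 95.1 ± 13.4 CPM (78.1 to 129.5) against 2.04 ± 2.97 in mural cells and at most 0.422 on average elsewhere. Jag1 was at 161.2 ± 47.4 CPM in mural cells and 60.9 ± 9.72 in endothelium, without overlap. It was at 30.5 ± 9.05 CPM in OPC, 16.3 ± 4.86 in ependymal cells, 13.1 ± 10.7 in astrocytes and 3.25 ± 2.52 in microglia, and these neighbours overlapped.

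The targets split the classes in other ways. Hes1 was at 397.0 ± 133 CPM in mural cells and 301.6 ± 133 in endothelium, and between 22.6 ± 11.01 (OPC) and 56.7 ± 31.8 (microglia) in the other 4 classes, with 53.5 ± 25.2 in ependymal cells and 44.2 ± 21.8 in astrocytes. Hes5, a target known from neural progenitors and glia, was at 36.0 ± 10.2 CPM in OPC and 27.5 ± 17.8 in astrocytes and at most 0.826 on average in the rest, ependymal cells included. Hey1 was at 74.6 ± 27.8 CPM in endothelium, 66.3 ± 19.0 in astrocytes, 26.7 ± 5.98 in ependymal cells and 26.7 ± 5.58 in OPC. Hey1 averaged 9.21 ± 8.43 CPM in mural cells and 0.682 ± 0.18 in microglia. Hey2 was at 172.6 ± 36.8 CPM in mural cells, above the 41.6 ± 9.99 of astrocytes without overlap. It was at 18.2 ± 5.96 CPM in OPC, 12.4 ± 5.13 in ependymal cells and 1.61 ± 0.73 in endothelium, so within the vessel wall Hey1 was high in endothelium and Hey2 in mural cells.

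**Figure D1:**
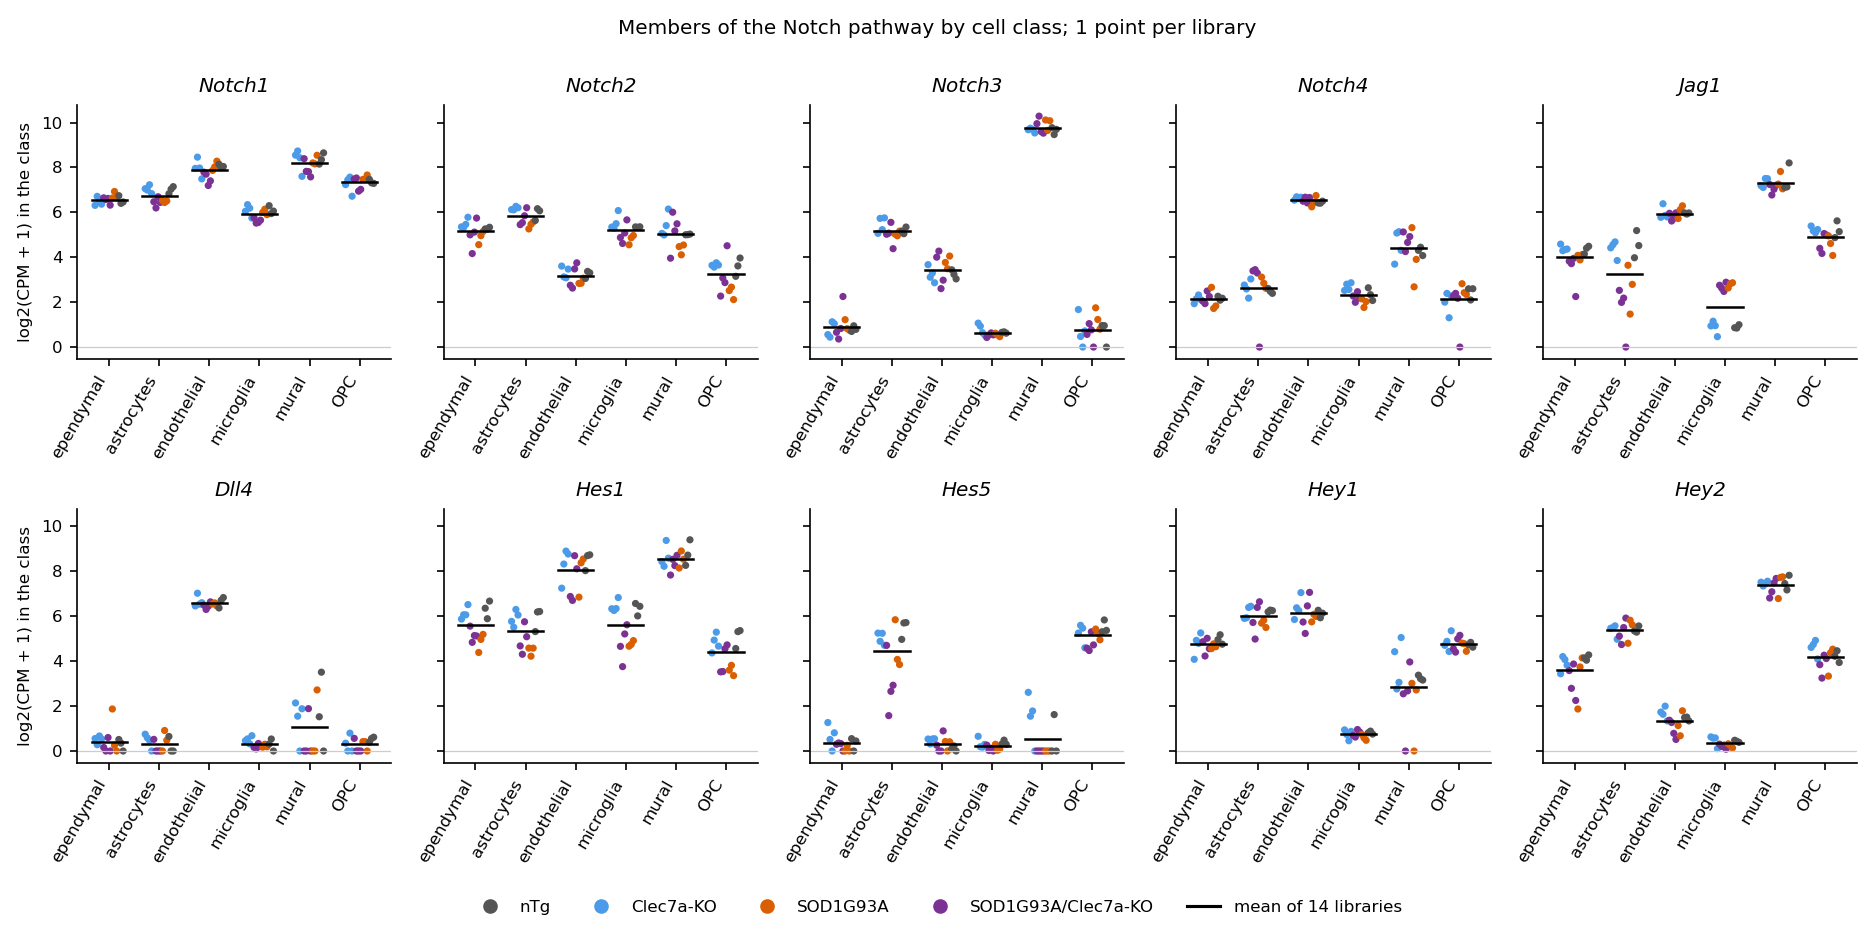
Level of each of the 10 genes (TMM-scaled CPM) in 6 cell classes; each point is 1 of 14 libraries. Dll4 and Notch4 stand highest in endothelium, Notch3 and Hey2 in mural cells, and Hes5 in OPC and astrocytes.

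Free RNA in droplets can give a UMI to a cell that does not express a gene, so shares of cells with a UMI were set beside those of microglia, which had the higher median depth (10158 UMIs). With every cell thinned to 2000 UMIs, Dll4 was seen in 16.2% of endothelial cells and 0.0553% of microglia (43.9% and 0.225% unthinned). Hes5 was seen in 5.21% of astrocytes and 6.17% of OPC against 0.0356% of microglia (unthinned 8.203%, 13.4% and 0.158%). Hey1 was seen in 11.5% of endothelial cells, 12.1% of astrocytes and 5.27% of ependymal cells against 0.124% of microglia (unthinned 29.1%, 26.1%, 26.4% and 0.677%). Notch3 was seen in 77.5% of mural cells and 6.99% of astrocytes against 0.126% of microglia (unthinned 84.8%, 15.6% and 0.544%). The median depths were 4537.5 UMIs in astrocytes, 6644.5 in endothelium, 8782 in ependymal cells, 7459 in OPC and 2876 in mural cells.

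Smaller classes were not tested. In neurons (13 libraries) Hey1 was at 25.8 ± 15.5 CPM and Notch1 at 13.9 ± 7.34, and no other member exceeded 5.80 on average. In border-associated macrophages (13 libraries) Notch2 was at 81.5 ± 48.4 CPM, Hes1 at 55.9 ± 45.4 and Notch1 at 47.9 ± 19.1. A cluster of 3731 cells with endothelial and mural genes together stayed unnamed, and it held Notch1 at 314.9 ± 61.5 CPM, Notch3 at 311.6 ± 54.4 and Dll4 at 82.2. The genes whose level followed each member most closely over the 24 clusters were found by Pearson's r of log2(CPM + 5) among 13513 genes, as a description. They were Atp13a5 (0.990), Enpep (0.983) and the Notch target Heyl (0.926) for Notch3. They were Slc19a3 (0.999), Srarp and Sema3g (0.998) for Dll4, Flvcr2 (0.980), St6galnac2 and Jcad for Notch4, and Il17rd (0.953), Stard13 and Sike1 for Jag1. They were Gm38031, Dio2 (0.988) and Gm48182 for Hes5, Nebl (0.977), Myrip and Kifc3 for Hey1, and Plce1 (0.955), Tab1 and Plxnb1 for Hey2. For Hes1 they were Tead2 (0.914), Cyth3 and Tmem204, for Notch2 Nlrx1 (0.877), Gm42819 and Fnbp1, and for Notch1 Insr (0.784), Pdlim5 and Ccnyl1.

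Ependymal cells line the central canal and carry motile cilia. In these cells Hes1 was lower in mice with the SOD1G93A transgene, whether or not Clec7a was present, and no other member passed the test. Hes1 was at 81.1, 58.4 and 101.3 CPM in nTg and at 57.7, 66.1, 65.9 and 90.9 in Clec7a-KO. It was at 19.9, 30.3 and 35.6 CPM in SOD1G93A and at 46.2, 27.7, 34.3 and 33.8 in SOD1G93A/Clec7a-KO. All 7 libraries with the transgene lay below all 7 without it. The log2 fold change was -1.39 ± 0.238 (SE) for SOD1G93A minus nTg (edgeR quasi-likelihood test, Benjamini-Hochberg adjusted over all genes, adjusted p = 0.00393). For SOD1G93A/Clec7a-KO minus Clec7a-KO it was -0.96 ± 0.209 (edgeR adjusted p = 0.0254).

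Thus 1 of 7 tested members passed in each transgene comparison. Of all 15368 genes tested in ependymal cells, 1.14% passed for SOD1G93A minus nTg (1.07% higher, 0.0716% lower) and 1.48% for SOD1G93A/Clec7a-KO minus Clec7a-KO (1.29% higher, 0.189% lower). Dll4, Hes5 and Notch3 were too low to be tested. Over the 7 tested members the median log2 fold change was -0.35 in the first comparison and -0.54 in the second, beside -0.01 and -0.03 over all genes. The first Hes1 call was lost with a covariate for libraries whose Xist exceeded Ddx3y (log2 fold change -1.24 ± 0.284, edgeR adjusted p = 0.105). The second was lost without any 1 of 5 libraries (edgeR adjusted p of 0.0611 to 0.145 without SOD1G93A/Clec7a-KO replicate 2 or 3 or Clec7a-KO replicate 2, 3 or 4).

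Jag1 in ependymal cells was at 16.7 to 21.5 CPM in nTg, 18.6 to 23.0 in Clec7a-KO, 13.7 to 16.4 in SOD1G93A and 3.76 to 14.4 in SOD1G93A/Clec7a-KO. The 7 libraries with the transgene did not overlap with the 7 without it, but neither comparison passed the test. The log2 fold changes were -0.35 ± 0.192 (edgeR adjusted p = 0.760) and -0.64 ± 0.175 (edgeR adjusted p = 0.0910), and the lowest value rested on 1 UMI. Ependymal Notch1 overlapped between all groups, at 78.4 to 106.1 CPM without and 78.9 to 120.8 with the transgene. Notch2, Hey1, Hey2 and Notch4 did not pass either test. Of the other pathway genes, a list of 50 that holds cleavage enzymes, Rbpj partners and further targets, 45 were tested in ependymal cells and 0 passed in any comparison by edgeR or by DESeq2.

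Ependymal cells formed 2 clusters, and the smaller (2316 cells) held 91.4 to 93.9% of the ependymal cells of nTg replicates 1 and 3 and Clec7a-KO replicate 3. In the larger cluster alone (5394 cells), Hes1 was at 67.8 ± 9.02 CPM in nTg, 58.7 ± 28.5 in Clec7a-KO, 27.4 ± 8.22 in SOD1G93A and 39.3 ± 11.8 in SOD1G93A/Clec7a-KO. Within it Clec7a-KO (21.2 to 89.1 CPM) overlapped with SOD1G93A/Clec7a-KO (26.9 to 52.8), while nTg (59.8 to 77.6) lay above SOD1G93A (18.3 to 34.3), and the overlap came from 1 library, Clec7a-KO replicate 3, whose 33 cells in this cluster held 4 Hes1 UMIs. Without it Clec7a-KO was at 55.8 to 89.1 CPM and the 7 transgenic libraries lay below the other 6. The summed level of 12 microglia markers in the ependymal counts, none of them at 0, was 112.2 to 772.0 CPM without the transgene and 484.9 to 2480 with it. The summed level of 16 genes that tissue dissociation induces, Fos and Jun among them, was 3189 to 14074 CPM without and 2330 to 7579 with it. The part of these in the Hes1 result was not tested.

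**Figure D2:**
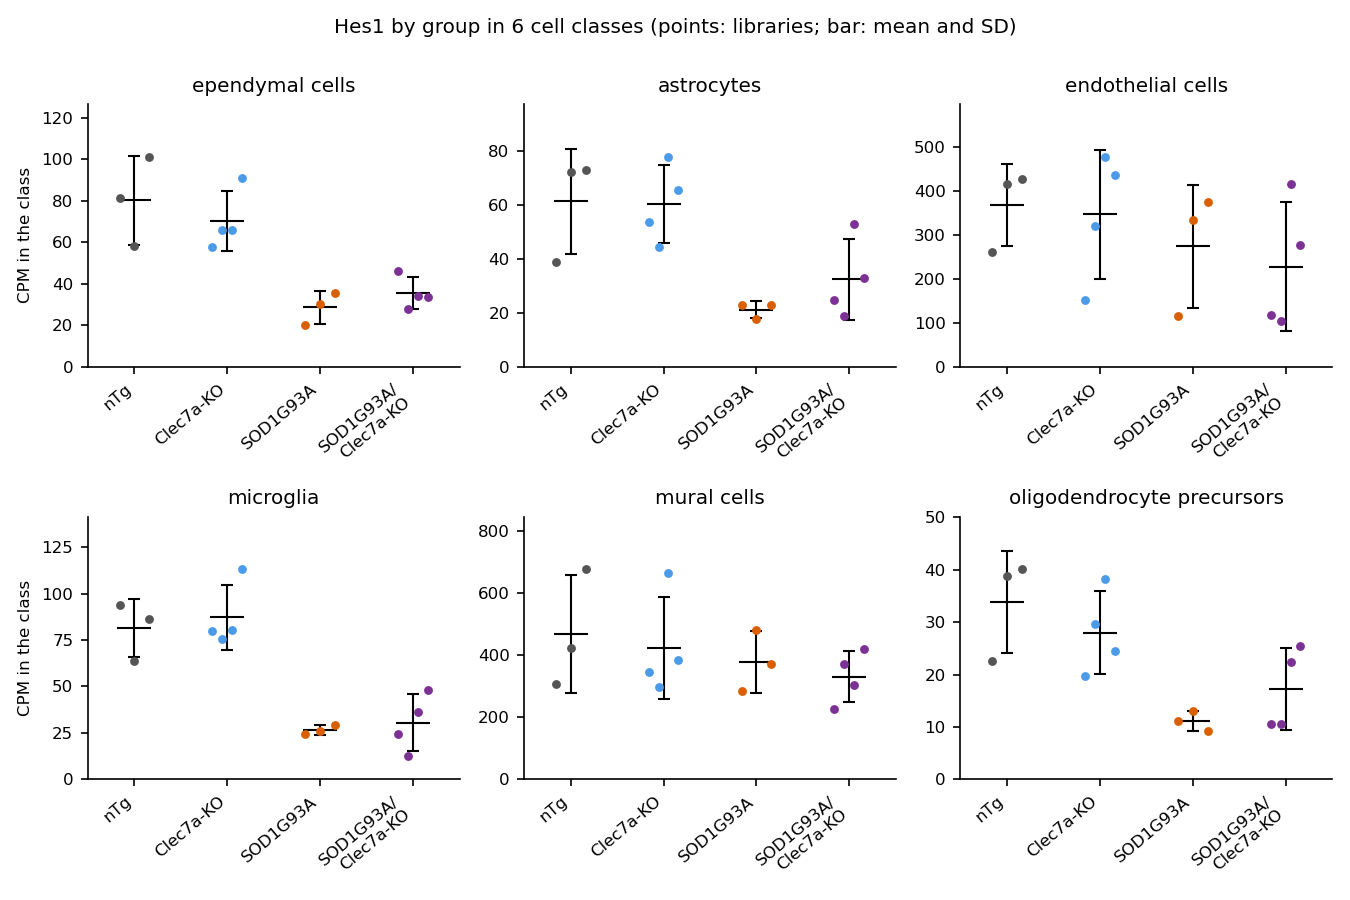
Hes1 level (TMM-scaled CPM) in each library, by group, in the cell classes tested; each point is 1 library. In ependymal cells and microglia all libraries with the SOD1G93A transgene lie below all without it, while in endothelium the groups overlap.

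Astrocytes had more members called than ependymal cells, with 4 of 9 tested members lower in each transgene comparison, namely Jag1, Hes1, Notch1 and Notch2, and 0 higher. The background was large: 31.6% of 12935 genes passed for SOD1G93A minus nTg (17% higher, 14.7% lower) and 31.6% for SOD1G93A/Clec7a-KO minus Clec7a-KO (17% higher, 14.6% lower). The median over the 9 members was -0.53 and -0.52, beside -0.02 and -0.04 over all genes. Dll4 was too low to be tested.

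A cluster of 1347 low-depth cells makes up much of this class in the transgenic mice. It was 3.25 to 8.66% of astrocytes in nTg, 5.36 to 11.9% in Clec7a-KO, 42.3 to 68.7% in SOD1G93A and 46.2 to 76.0% in SOD1G93A/Clec7a-KO. Its cells' median depth, relative to the median of their own library, was 0.327. By the same measure the mural cluster was at 0.319. All 11 astrocyte markers were detected in it, the astrocyte cluster, but A2m, Gfap, S100a6, Serpina3n and C3 led it against the rest, with none of the 11 markers among the leading 10. Against the lower quartile of the clusters, the measure used for naming, Aqp4 and Agt of the 11 were among its leading 10 genes. Each called member and each pathway gene given with values is therefore also given without this cluster, a setting added after the data were seen, in which 1 of 8 tested members passed in each comparison (Hes1 lower, then Jag1 lower). In that setting 11% of 11283 genes passed in the first comparison (2.77% lower) and 15.4% in the second (4.72% lower). Leaving this cluster out also removes much of the astrocyte class of the transgenic mice, and the part of depth in the lost calls was not tested. A further cluster of 1453 cells held 85 to 87% of the astrocytes of nTg replicates 1 and 3 and Clec7a-KO replicate 3, and most of the others' remaining astrocytes were in a cluster of 3064.

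The ligand Jag1 had the largest fold of the members. It was at 14.8, 35.5 and 22.0 CPM in nTg, at 20.4, 22.6, 24.7 and 13.5 in Clec7a-KO, at 11.5, 1.77 and 5.93 in SOD1G93A and at 4.75, 2.97, 3.54 and 0 in SOD1G93A/Clec7a-KO. The libraries with and without the transgene did not overlap. The SOD1G93A values rested on 2 to 15 UMIs and those of SOD1G93A/Clec7a-KO on 0 to 11. The library at 0 had a floor of 19.8 CPM (3 UMIs), so its 0 does not separate it from the others. The log2 fold change was -1.94 ± 0.422 (edgeR adjusted p = 0.00264) for SOD1G93A minus nTg and -2.41 ± 0.469 (edgeR adjusted p = 0.00109) for SOD1G93A/Clec7a-KO minus Clec7a-KO. Without the low-depth cluster these were -1.37 ± 0.469 (edgeR adjusted p = 0.0684) and -1.62 ± 0.519 (edgeR adjusted p = 0.0407). With a mitochondrial limit of 5% Jag1, at 0 to 18 UMIs per library, was too low to be tested. In nTg it then had 2, 0 and 3 UMIs among 373434, 82623 and 216128 astrocyte UMIs. SOD1G93A had 5, 2 and 6 among 491510, 290416 and 942653, so relative to these totals the groups overlapped. Clec7a-KO had 18, 2, 3 and 5 among 1099494, 45228, 140643 and 184053. SOD1G93A/Clec7a-KO had 7, 3, 2 and 0 among 1364197, 815663, 206394 and 47546, lower relative to the totals.

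The target Hes1 was at 38.9, 72.2 and 73.2 CPM in nTg and 53.7, 44.6, 78.1 and 65.6 in Clec7a-KO. It was at 23.0, 17.7 and 22.9 CPM in SOD1G93A and 24.6, 18.8, 53.1 and 33.1 in SOD1G93A/Clec7a-KO. All 3 SOD1G93A libraries lay below all 3 nTg libraries, while replicate 3 of SOD1G93A/Clec7a-KO lay within the Clec7a-KO range. The log2 fold change was -1.52 ± 0.315 (edgeR adjusted p = 0.00186) and -1.03 ± 0.299 (edgeR adjusted p = 0.0149). Without the low-depth cluster it was -1.25 ± 0.369 (edgeR adjusted p = 0.0343) and -0.62 ± 0.347 (edgeR adjusted p = 0.260). The second call was also lost without SOD1G93A/Clec7a-KO replicate 1 or 2 or Clec7a-KO replicate 3 (edgeR adjusted p = 0.0921, 0.0858 and 0.052). With a mitochondrial limit of 5% the values were -0.94 (edgeR adjusted p = 0.290) and -1.18 (edgeR adjusted p = 0.111).

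The receptor Notch1 was at 112.7, 130.0 and 140.5 CPM in nTg and 131.9, 126.3, 149.1 and 113.2 in Clec7a-KO. It was at 91.0, 85.7 and 90.1 CPM in SOD1G93A and 87.7, 72.3, 102.6 and 86.0 in SOD1G93A/Clec7a-KO. All 7 transgenic libraries lay below the other 7. The log2 fold change was -0.52 ± 0.164 (edgeR adjusted p = 0.0223) and -0.59 ± 0.152 (edgeR adjusted p = 0.00741). It was -0.19 (edgeR adjusted p = 0.555) and -0.35 (edgeR adjusted p = 0.182) without the low-depth cluster. The first call was also lost in 4 of the fits without 1 library (without SOD1G93A replicate 2 or 3 or nTg replicate 2 or 3, edgeR adjusted p of 0.0582 to 0.102). It was further lost with the Xist covariate (edgeR adjusted p = 0.114), with doublets returned (0.0661) and with no filter on low counts (0.0524). With the mitochondrial limit of 5% neither call held (-0.82, edgeR adjusted p = 0.0911, and -0.50, edgeR adjusted p = 0.275).

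The receptor Notch2 was at 48.8 to 70.6 CPM in nTg, 68.2 to 76.1 in Clec7a-KO, 37.4 to 46.6 in SOD1G93A and 42.8 to 72.8 in SOD1G93A/Clec7a-KO, so the first pair of groups did not overlap and the second did. The log2 fold change was -0.53 ± 0.185 (edgeR adjusted p = 0.0373) and -0.52 ± 0.176 (edgeR adjusted p = 0.0312). Notch2 was the least stable of the 4, with the call kept in 11 and 16 of 26 alternative fits. The first was lost without SOD1G93A replicate 1, 2 or 3, nTg replicate 2 or 3, or Clec7a-KO replicate 1 or 3 (edgeR adjusted p of 0.0507 to 0.139). The second was lost without SOD1G93A replicate 2, SOD1G93A/Clec7a-KO replicate 1 or 2, or Clec7a-KO replicate 1, 3 or 4 (edgeR adjusted p of 0.0507 to 0.174). Without the low-depth cluster it was -0.24 (edgeR adjusted p = 0.545) and -0.33 (edgeR adjusted p = 0.344).

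**Figure D3:**
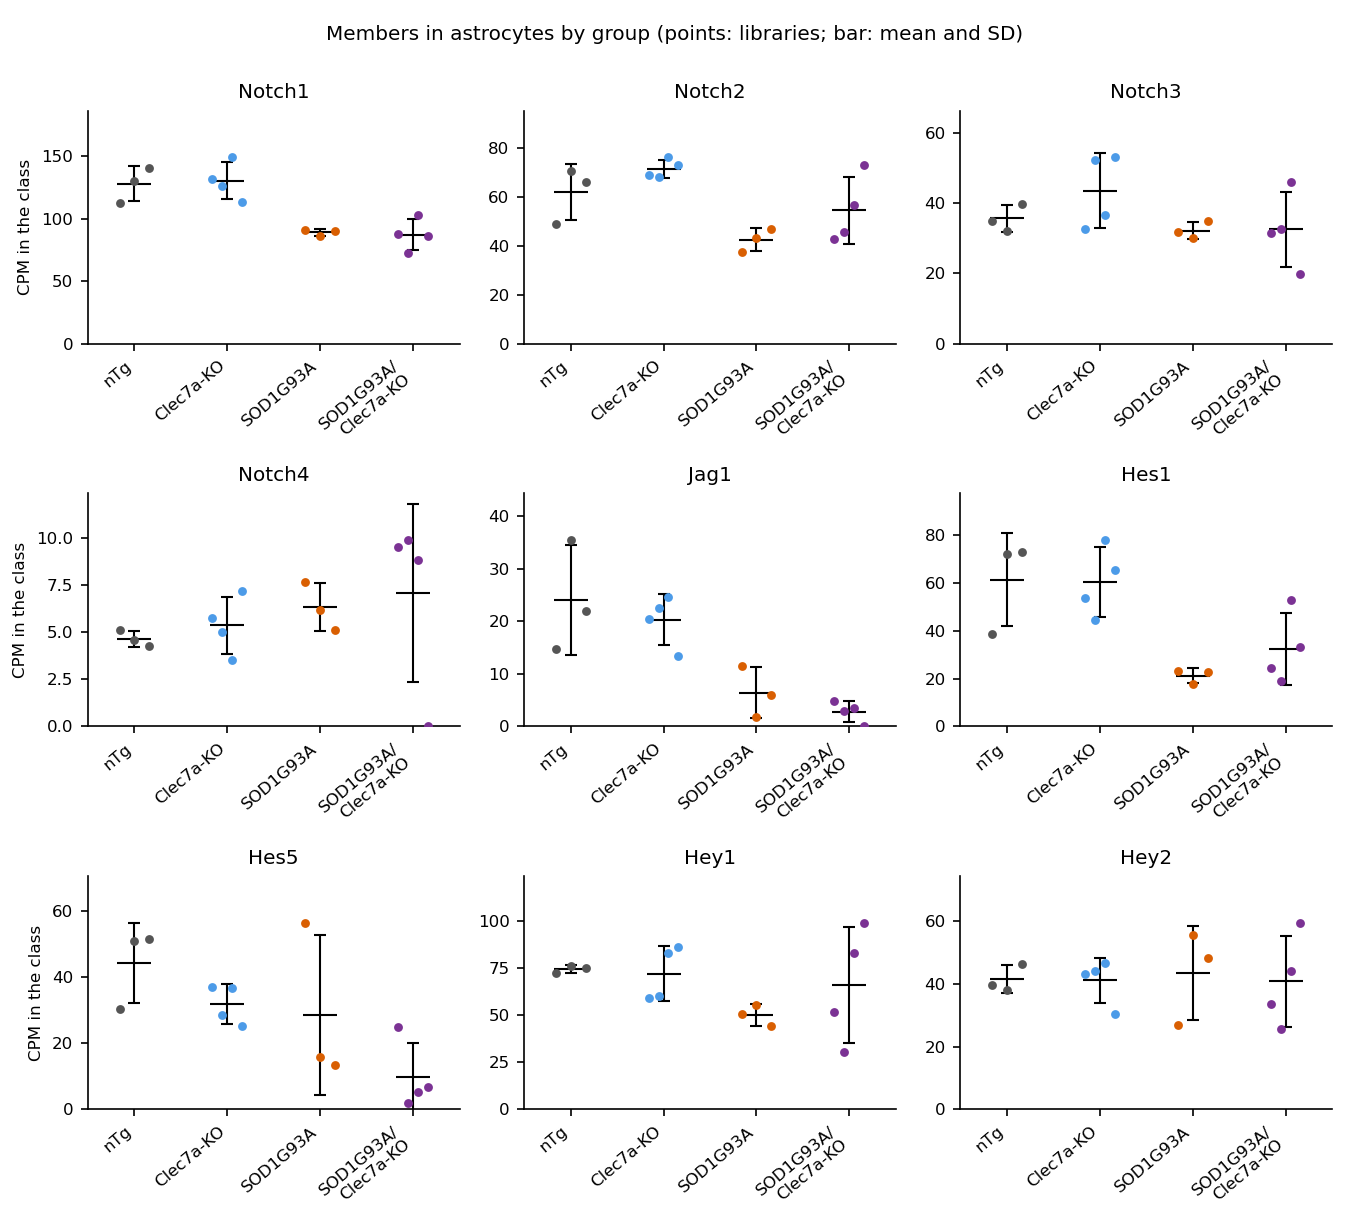
Level (TMM-scaled CPM) of the members in astrocytes, by group; each point is 1 library. Jag1 and Notch1 do not overlap between libraries with and without the transgene, while Hes5, Hey1 and Hey2 do.

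Hes5 in astrocytes was at 30.4, 51.1 and 51.7 CPM in nTg, 37.1, 28.6, 36.9 and 25.1 in Clec7a-KO, 56.5, 15.9 and 13.4 in SOD1G93A and 25.1, 1.98, 5.31 and 6.61 in SOD1G93A/Clec7a-KO. Neither comparison passed (log2 fold change -0.75 ± 0.481, edgeR adjusted p = 0.251, and -1.25 ± 0.512, edgeR adjusted p = 0.0724). SOD1G93A replicate 1 was the highest of all 14 libraries, and SOD1G93A/Clec7a-KO replicate 4 held 1 UMI. Hes5 depended on the setting. It passed in 4 of 26 alternative fits for SOD1G93A minus nTg and in 8 of 26 for SOD1G93A/Clec7a-KO minus Clec7a-KO. In the second comparison it was -1.44 ± 0.509 with the replicate block (edgeR adjusted p = 0.0407). There all 4 same-numbered pairs of libraries correlated above 0.1, but only 1 of the 4 correlated best with its own number. Without SOD1G93A replicate 1 the first comparison was -1.62 (edgeR adjusted p = 0.0166), and without SOD1G93A/Clec7a-KO replicate 1 the second was -3.17 (edgeR adjusted p = 0.00545). With the mitochondrial limit of 5% it was the 1 member called, at -3.16 ± 0.601 (edgeR adjusted p = 0.00152) and -3.94 ± 0.624 (edgeR adjusted p = 0.000502), on 8 to 250 astrocytes per library. Hes5 was then at 48.9 to 135.1 CPM (3 to 58 UMIs) without the transgene and 0 to 18.3 (0 to 9 UMIs) with it. Without the low-depth cluster the values were 0.46 (edgeR adjusted p = 0.440) and -0.11 (edgeR adjusted p = 0.916), so the first changed sign.

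In the low-depth cluster Hes5 was at 14.6 ± 16.1 CPM in nTg (n = 3), 19.8 ± 19.4 in Clec7a-KO (n = 3), 3.04 ± 2.64 in SOD1G93A (n = 3) and 0.73 ± 1.45 in SOD1G93A/Clec7a-KO (n = 4). These values rested on 0 to 24 UMIs per library, and 1 library carried each group without the transgene: without nTg replicate 3 and Clec7a-KO replicate 1 the means were 5.93 and 10.3 CPM. The SOD1G93A/Clec7a-KO mean also came from 1 library, with the others at 0. In the cluster of 3064 cells it was at 38.2, 52.8 and 178.3 CPM in nTg, the last in replicate 3 (36 cells, 24 UMIs), without which the nTg mean was 45.5. It was there at 41.0 ± 21.0 CPM in Clec7a-KO, 57.8 ± 27.9 in SOD1G93A and 21.6 ± 17.4 in SOD1G93A/Clec7a-KO (11.6 without replicate 1), so whether nTg lay above SOD1G93A depended on that 1 library. Hey2 in the low-depth cluster was at 91.4 ± 15.9 CPM in nTg, 95.6 ± 36.1 in Clec7a-KO, 44.6 ± 6.54 in SOD1G93A and 43.7 ± 15.2 in SOD1G93A/Clec7a-KO. In the cluster of 3064 it was at 51.9 ± 32.6 (33.3 without nTg replicate 3), 35.2 ± 4.30, 44.4 ± 23.2 and 29.0 ± 12.3 CPM in the same order. The ranges of the clusters did not overlap in Clec7a-KO (58.9 to 131.1 against 29.0 to 38.8) and overlapped in the other 3 groups. Hey1 averaged 61.8 ± 21.3 CPM in the low-depth cluster and 62.5 ± 17.6 in the cluster of 3064. None of these cluster levels was tested between groups.

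Within the cluster of 3064 cells alone, Hes1 was at 62.0 ± 15.6 CPM in nTg, 69.3 ± 27.2 in Clec7a-KO, 24.9 ± 3.07 in SOD1G93A and 40.8 ± 36.0 in SOD1G93A/Clec7a-KO (21.1 without replicate 3). Jag1 there was at 19.1, 36.7 and 7.43 CPM in nTg, on 2, 116 and 1 UMIs, and its mean of 21.1 was 13.3 without replicate 2. In Clec7a-KO it was at 22.4, 19.7, 71.8 and 14.04 CPM, of which the third value rested on 6 UMIs in 27 cells, and its mean of 32.0 was 18.7 without that library. It was at 7.71 ± 6.73 CPM (0 to 8 UMIs) in SOD1G93A and 6.92 ± 2.43 (1 to 9 UMIs) in SOD1G93A/Clec7a-KO. The ranges of nTg and SOD1G93A overlapped, while Clec7a-KO lay above SOD1G93A/Clec7a-KO. In the low-depth cluster Jag1 was at 2.27 ± 2.91 CPM and Hes1 at 14.98 ± 11.8 (13 libraries). By group, Hes1 in that cluster was at 4.53 ± 5.48 CPM in nTg (n = 3), 14.1 ± 18.8 in Clec7a-KO (n = 3), 19.2 ± 4.98 in SOD1G93A (n = 3) and 20.3 ± 10.8 in SOD1G93A/Clec7a-KO (n = 4), so the lower class total with the transgene was not seen within it. The nTg values rested on 0 to 3 UMIs, and without Clec7a-KO replicate 1 (22 UMIs) that group was at 3.45 CPM.

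Of the other pathway genes, 13 of 43 tested in astrocytes passed for SOD1G93A minus nTg (6 higher, 7 lower) and 12 of 43 for SOD1G93A/Clec7a-KO minus Clec7a-KO (7 higher, 5 lower). These shares are near or below the 31.6% of all genes that passed in each comparison, so nothing is read from the counts. Among the further targets of the pathway, 3 of 4 tested were lower in both comparisons: Heyl, which encodes a Hey-family repressor, Nrarp, which encodes a feedback inhibitor, and Dtx1, a Deltex ubiquitin ligase. Heyl changed by -1.89 ± 0.424 (edgeR adjusted p = 0.00316) in the first comparison and Dtx1 by -1.04 ± 0.203 (edgeR adjusted p = 0.00113) in the second. Lfng, a glycosyltransferase that modifies Notch receptors, was lower in both (-1.22 ± 0.26, edgeR adjusted p = 0.00229, and -1.15 ± 0.235, edgeR adjusted p = 0.00151). Numbl, related to the Notch antagonist Numb, was higher in both (1.27 ± 0.284, edgeR adjusted p = 0.00313, and 1.41 ± 0.277, edgeR adjusted p = 0.00116). The ubiquitin ligase gene Itch was lower in the first (-0.89 ± 0.176, edgeR adjusted p = 0.00137) and Rbpj itself higher in the second (1.08 ± 0.246, edgeR adjusted p = 0.00327).

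Without the low-depth cluster 1 of 41 tested pathway genes passed in the first comparison (Mfng, higher) and 3 of 41 in the second (Adam17, Mfng and Tle1, all higher), named after their values were seen. Heyl, Nrarp and Dtx1 passed in neither (edgeR adjusted p of 0.147 to 0.893). There Heyl was at -0.65 (edgeR adjusted p = 0.266) and Itch at -0.44 (edgeR adjusted p = 0.183) in the first comparison, Dtx1 at -0.54 (edgeR adjusted p = 0.147) and Rbpj at 0.87 (edgeR adjusted p = 0.0766) in the second. In the same setting Lfng was at -0.72 (edgeR adjusted p = 0.084) and -0.71 (edgeR adjusted p = 0.0525), and Numbl at 0.61 (edgeR adjusted p = 0.316) and 0.94 (edgeR adjusted p = 0.0832).

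Markers of other cells moved with the astrocyte groups. The 12 microglia markers, none at 0, summed to 225.2 to 2170 CPM without the transgene and 1754 to 11846 with it. The 11 astrocyte markers summed to 20227 to 24539 CPM without and 12313 to 17494 with it. The 16 dissociation-induced genes summed to 413.8 to 2060 CPM without and 994.0 to 4376 with it, the opposite direction to ependymal cells. Their part in the astrocyte results was not tested.

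**Figure D4:**
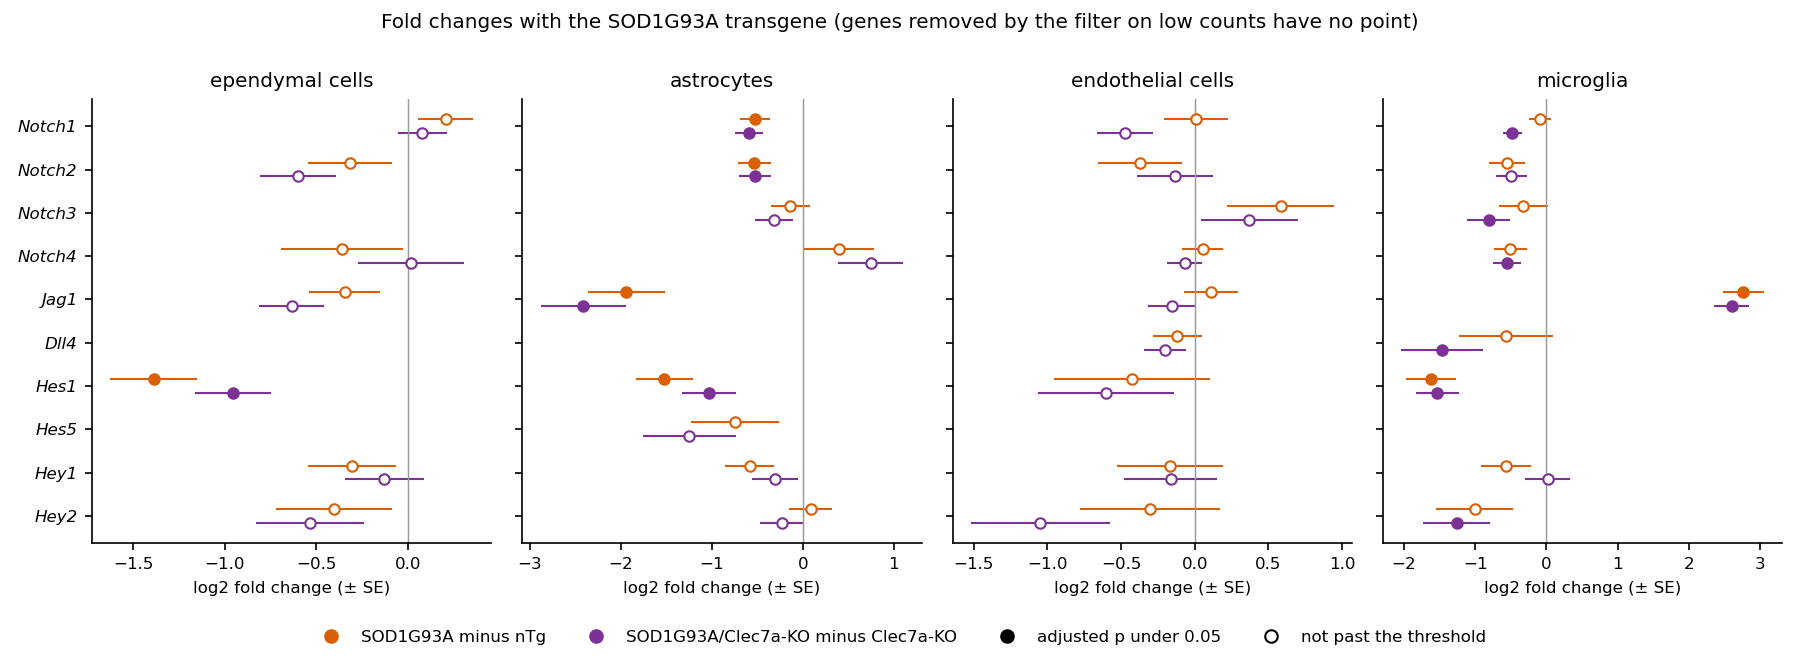
Log2 fold change of each tested member for SOD1G93A minus nTg and SOD1G93A/Clec7a-KO minus Clec7a-KO by cell class, with bars of 1 standard error; called members (edgeR adjusted p under 0.05) are marked. Hes1 lies below 0 in every class shown, and Jag1 lies below 0 in astrocytes and above 0 in microglia.

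In endothelium 0 of 9 tested members passed in any comparison by edgeR or by DESeq2. Of 13358 genes, 1.01% passed for SOD1G93A minus nTg (0.988% higher, 0.0225% lower) and 0.861% for SOD1G93A/Clec7a-KO minus Clec7a-KO (0.816% higher, 0.0449% lower). At an unadjusted edgeR p under 0.05 the counts of members were 0 and 2. The median over the 9 members was -0.12 and -0.16, beside -0.02 and -0.03 over all genes. Hes5 was too low to be tested, and 0 of the other pathway genes passed.

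The endothelial ligand Dll4 was at 81.8, 104.0 and 113.1 CPM in nTg, 87.1, 129.5, 92.1 and 96.4 in Clec7a-KO, 92.6, 95.8 and 87.0 in SOD1G93A and 89.3, 78.1, 86.1 and 98.9 in SOD1G93A/Clec7a-KO. The receptor Notch4 was at 83.9 to 89.4 CPM in nTg, 92.3 to 102.5 in Clec7a-KO, 74.9 to 106.5 in SOD1G93A and 84.6 to 101.1 in SOD1G93A/Clec7a-KO. Both genes overlapped between transgenic and other libraries, and the transgene folds of Dll4 were -0.12 ± 0.166 and -0.20 ± 0.145 on the log2 scale. The receptor Notch1 was at 281.2, 252.8 and 262.3 CPM in nTg, 247.6, 350.8, 250.5 and 178.8 in Clec7a-KO, 232.8, 259.3 and 309.7 in SOD1G93A and 220.1, 207.0, 145.5 and 168.2 in SOD1G93A/Clec7a-KO. The 4 libraries with both alterations lay below all SOD1G93A libraries and overlapped with Clec7a-KO. The lowest values (145.5, 168.2 and 178.8 CPM) were in the libraries numbered 13, 15 and 16 in the labels, the last of which is Clec7a-KO. Libraries 1 to 4 lay close together, at 232.8 CPM in SOD1G93A, 220.1 and 207.0 with both alterations and 247.6 in Clec7a-KO. The endothelial cells of 6 libraries lay mostly in other clusters than those of the rest. A cluster of 1509 cells held 66.3 and 84.7% of the endothelial cells of SOD1G93A/Clec7a-KO replicates 3 and 4 and 74.5% of those of Clec7a-KO replicate 4, and at most 3.39% in the other 11 libraries. A cluster of 1910 held 74.5 to 76.9% in nTg replicates 1 and 3 and Clec7a-KO replicate 3. Within the remaining cluster of 8425 cells, present in all 14 libraries, Notch1 was at 248.3 to 295.5 CPM in SOD1G93A, 109.2 to 225.7 in SOD1G93A/Clec7a-KO and 180.7 to 327.0 in Clec7a-KO, so the same order was seen there, with 40 cells and 12 UMIs behind the lowest value. Its log2 fold change was -0.47 ± 0.191 for SOD1G93A/Clec7a-KO minus Clec7a-KO (edgeR adjusted p = 0.392) and -0.53 ± 0.204 for SOD1G93A/Clec7a-KO minus SOD1G93A (edgeR adjusted p = 0.683). For SOD1G93A minus nTg the lowest p belonged to Notch3 (0.58 ± 0.36, edgeR adjusted p = 0.951), whose endothelial level was 5.08 to 18.3 CPM over all libraries.

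Endothelial Hes1 followed the library numbers of the labels rather than the groups. It was at 261.0, 415.9 and 426.2 CPM in nTg, 151.5, 320.1, 478.3 and 436.4 in Clec7a-KO, 114.6, 332.9 and 374.1 in SOD1G93A and 117.0, 103.5, 414.8 and 276.6 in SOD1G93A/Clec7a-KO. The 4 libraries numbered 1 to 4, which came from 3 groups, held 103.5 to 151.5 CPM, and the other 10 held 261.0 to 478.3, without overlap. The labels do not say what the number stands for, and this split was seen in the data. In endothelium the 16 dissociation-induced genes summed to 9548 to 14023 CPM in libraries 1 to 4 and 13389 to 31477 in the other 10. Of those 10, nTg replicate 1 and SOD1G93A/Clec7a-KO replicate 4 had the lowest Hes1 and the lowest sums (13389 and 15344 CPM). The part of these genes in endothelial Hes1 was not tested. The SOD1G93A libraries are numbered 1, 5 and 6 and the nTg libraries 8, 9 and 12. These groups alone therefore cannot tell the transgene from the library number, within libraries 5 to 16 either. In ependymal cells the group difference was also present within the libraries numbered 5 to 16, where Hes1 was at 58.4 to 101.3 CPM in nTg, 65.9 to 90.9 in Clec7a-KO, 30.3 to 35.6 in SOD1G93A and 33.8 to 34.3 in SOD1G93A/Clec7a-KO. Within libraries 1 to 4 it was at 57.7 CPM in Clec7a-KO, 19.9 in SOD1G93A and 27.7 to 46.2 in SOD1G93A/Clec7a-KO, with no nTg library. A covariate for this split was tried once the data had been seen, and the ependymal value for SOD1G93A/Clec7a-KO minus Clec7a-KO with it was -0.85 (edgeR adjusted p = 0.0862) and no longer passed. In astrocytes and OPC SOD1G93A/Clec7a-KO overlapped with Clec7a-KO within libraries 5 to 16. Astrocyte Hes1 was there at 33.1 to 53.1 CPM against 44.6 to 78.1, and OPC Hes1 at 22.5 to 25.5 against 24.5 to 38.2. The SOD1G93A/Clec7a-KO libraries within 1 to 4 held 18.8 and 24.6 CPM in astrocytes and 10.5 and 10.6 in OPC. SOD1G93A lay below nTg without overlap within libraries 5 to 16 in both classes (17.7 to 22.9 against 38.9 to 73.2 CPM in astrocytes, 9.25 to 13.1 against 22.7 to 40.1 in OPC). There too the SOD1G93A libraries hold the lower numbers.

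Endothelial cells were also ranked within each library by arterial, capillary and venous marker scores, and the top decile by each score (32 to 138 cells per library) was set against the rest. This was added after the data were seen and is a description, since the scores come from the same cells. In the arterial decile Hey1 was at 208.5 ± 71.9 CPM against 57.2 ± 21.7 in the rest, Notch4 at 139.8 ± 20.3 against 85.9 ± 7.59 and Dll4 at 132.2 ± 23.9 against 90.1 ± 11.9. Notch1 was at 355.4 ± 89.5 CPM against 224.9 ± 46.8, and Jag1 at 82.5 ± 15.5 against 57.7 ± 7.75. Each of these 5 genes was higher in the arterial decile in 14 of 14 libraries. Notch1 and Jag1, like Notch3, Hey2 and Hes1, had their highest mean of the tested classes in mural cells. Of the last 3, Notch3 was higher in the arterial decile in 13 of 14 libraries (17.4 ± 9.17 CPM against 9.36 ± 3.59) and Hey2 in 10, while Hes1 was lower (below). The arterial score includes Mgp, which is also a leading gene of the mural cluster. The part of mural RNA in the arterial decile was not tested. Clustering the endothelial cells gave a less even picture: an arterial subcluster of 2079 cells had enough cells in 7 libraries, 0 to 0.156% of endothelial cells being in it with the transgene. Against the unnamed endothelial cells of the same library, Hey1 was higher in it in 7 of 7 libraries, Notch4 and Dll4 in 6, Notch1 in 5 and Jag1 in 3. Hes1 in the arterial decile went the other way, at 222.4 ± 100.2 CPM against 308.6 ± 135.6, and was lower in the arterial decile in 14 of 14.

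In the venous decile Hey1 was at 14.6 ± 13.1 CPM, Dll4 at 52.7 ± 9.85, Notch1 at 178.4 ± 32.9 and Notch4 at 70.3 ± 13.3, all below the rest in 14 of 14 libraries. Jag1, at 60.6 CPM against 60.5, and Hes1, at 304.5 against 297.9, did not follow them. Set directly against the venous decile, the arterial decile was higher in 14 of 14 libraries for Dll4, Hey1, Notch1 and Notch4, in 13 for Jag1 and in 1 for Hes1. In the capillary decile Dll4 was at 114.7 CPM against 92.4 in the rest, higher in 13 of 14 libraries.

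**Figure D5:**
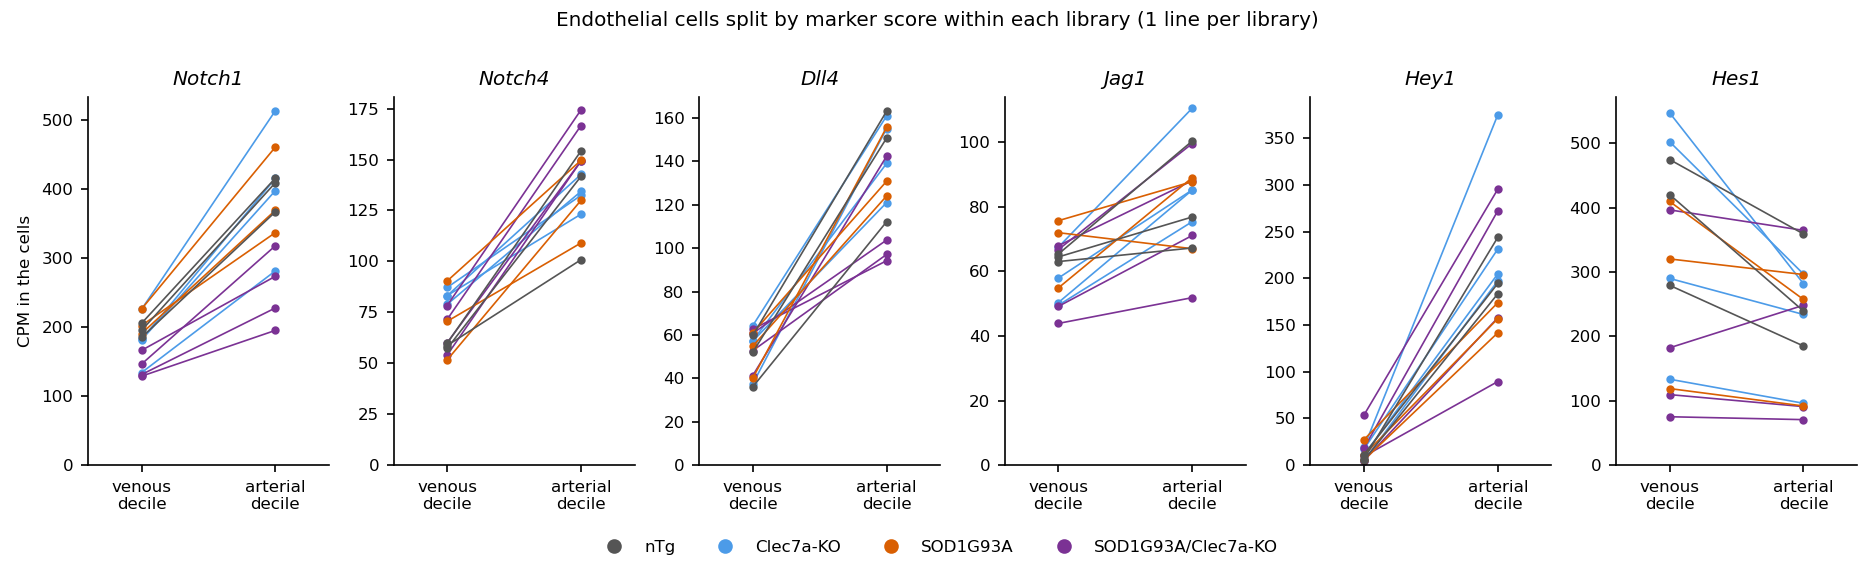
Level (CPM) of the members in the venous and the arterial decile of endothelial cells, with 1 line per library. Lines for Hey1, Dll4, Notch1 and Notch4 rise from venous to arterial in all 14 libraries, and lines for Hes1 fall in 13.

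The other classes were not foremost in the description, and the following tests were chosen after their values were seen. In microglia Jag1 counts were higher with the transgene, from a low level, and Hes1 was lower. Microglial Jag1 was at 0.817, 0.798 and 0.994 CPM in nTg, 0.92, 1.22, 0.934 and 0.378 in Clec7a-KO, 5.20, 6.07 and 6.28 in SOD1G93A and 5.73, 5.15, 4.57 and 6.40 in SOD1G93A/Clec7a-KO. The libraries with the transgene lay above all others. The log2 fold change was 2.76 ± 0.289 (edgeR adjusted p = 9.39e-06) and 2.60 ± 0.248 (edgeR adjusted p = 2.09e-06), on 5 to 35 UMIs per library without and 112 to 525 with the transgene. The level that free Jag1 RNA gives in microglia was not measured. The level without the transgene is low and may be background, so the size of the fold rests on an uncertain baseline. A Jag1 UMI was seen in 0.792% of microglia without the transgene (median depth 7795 UMIs) and 5.11% with it (11442 UMIs). In T and NK cells, taken as cells that should lack Jag1, the share was 2.82% without (4 of 142 cells, exact binomial 95% interval 0.773 to 7.06%, median depth 4173.5) and 1.52% with the transgene (9 of 592 cells, 0.697 to 2.87%, median depth 3730). With libraries pooled, T and NK cells with the transgene were at 2.89 CPM (exact Poisson 95% interval 1.32 to 5.49) and microglia with it at 4.84 (4.65 to 5.04), so the intervals overlap. Without the transgene T and NK cells were at 5.94 CPM (1.62 to 15.2, on 4 UMIs) and microglia at 1.07 (0.905 to 1.27). There the intervals did not overlap and microglia lay lower, so the level in T and NK cells is not that of free RNA in microglia. The part of free RNA in the microglial Jag1 result was not tested.

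Microglial Hes1 was at 63.8 to 94.0 CPM in nTg, 75.6 to 113.2 in Clec7a-KO, 24.4 to 29.2 in SOD1G93A and 12.53 to 48.3 in SOD1G93A/Clec7a-KO. Libraries with and without the transgene did not overlap, and the log2 fold change was -1.62 ± 0.349 (edgeR adjusted p = 0.0029) and -1.53 ± 0.303 (edgeR adjusted p = 0.00099). The Jag1 and Hes1 calls held in 26 of 26 alternative fits in both comparisons. One of these, added after the data were seen, left out a microglial cluster of 4019 cells led by hemoglobin and granule genes (Hbb-bs, Elane, Mpo and others). That cluster held 3.78 to 15.2% of the microglia of each library. Without it Jag1 was at 2.82 and 2.60 and Hes1 at -1.67 and -1.57 on the log2 scale, and Notch3, Hey2 and Dll4 no longer passed. In all, 2 of 9 tested members passed for SOD1G93A minus nTg, against 32.2% of 16653 genes (19.3% higher, 12.9% lower). For SOD1G93A/Clec7a-KO minus Clec7a-KO 7 of 9 passed, against 46.5% of genes (25.5% higher, 20.9% lower), with Notch1 and Notch4 among the lower. The other 3 calls, for Notch3, Hey2 and Dll4, concern genes whose microglial mean was at most 0.564 CPM, a level taken here as that of free RNA, and they are not read as changes in microglia. The endothelial share of UMIs was 17.4 to 20.0% in Clec7a-KO and 2.51 to 8.46% in SOD1G93A/Clec7a-KO, and the mural share 0.806 to 1.21% and 0.141 to 0.801%; their part in these calls was not tested. The 16 dissociation-induced genes summed to 37547 to 48518 CPM in microglia without the transgene and 16240 to 21406 with it, and their part in the Hes1 result was not tested.

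In OPC Hes1 was at 22.7, 38.9 and 40.1 CPM in nTg, 19.7, 29.7, 38.2 and 24.5 in Clec7a-KO, 11.1, 13.1 and 9.25 in SOD1G93A and 10.5, 10.6, 22.5 and 25.5 in SOD1G93A/Clec7a-KO. It passed for SOD1G93A minus nTg (-1.59 ± 0.314, edgeR adjusted p = 0.0115), as 1 of 8 tested members against 1.59% of 13231 genes. That call was lost without SOD1G93A replicate 3 or nTg replicate 2 or 3 (edgeR adjusted p of 0.0568 to 0.0659) and with the Xist covariate (edgeR adjusted p = 0.128). It did not pass for SOD1G93A/Clec7a-KO minus Clec7a-KO (-0.76 ± 0.309, edgeR adjusted p = 0.175), where 4.26% of genes did and 0 members did (3 at an unadjusted p under 0.05). OPC Hes5 was at 21.2 to 56.2 CPM over all 14 libraries, with transgenic and other libraries overlapping. In mural cells 0 of 7 tested members passed in either transgene comparison by edgeR (0.108% and 0.62% of 7414 genes did), and 0 had an unadjusted p under 0.05. Mural Hes1 was at 227.7 to 677.9 CPM with all groups overlapping.

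Loss of Clec7a was not followed by a called change of any member. In mice with the transgene (SOD1G93A/Clec7a-KO minus SOD1G93A) 0 members passed by edgeR or DESeq2 in ependymal cells (0.026% of genes passed, 0.0195% lower), astrocytes (0.00773%) or endothelium (0.00749%), with 0, 0 and 1 member at an unadjusted edgeR p under 0.05. The lowest p belonged to Jag1 in ependymal cells (-0.25 ± 0.201, edgeR adjusted p = 0.764), Hes5 in astrocytes (-0.94 ± 0.576, edgeR adjusted p = 0.832, and -1.01 ± 0.412 without the low-depth cluster, edgeR adjusted p = 0.749) and Notch1 in endothelium (above). In mice without it (Clec7a-KO minus nTg) 0 members passed by either tool and 0 had an unadjusted p under 0.05, while 0.026% of genes passed in ependymal cells and 0% in astrocytes and endothelium. There the lowest p belonged to Notch2 in ependymal cells (0.22 ± 0.201), Notch2 in astrocytes (0.21 ± 0.163) and Notch4 in endothelium (0.19 ± 0.128), each with an edgeR adjusted p above 0.99.

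The difference between the 2 transgene comparisons was tested as an interaction, and 0 members passed in ependymal cells (0.00651% of genes passed), astrocytes (0%) or endothelium (0.00749%), with 0 members at an unadjusted edgeR p under 0.05. For Hes1 the difference was 0.43 ± 0.314 in ependymal cells and 0.49 ± 0.437 in astrocytes, and for astrocyte Jag1 it was -0.47 ± 0.672, on the log2 scale. What size of difference the interaction could detect was not tested. The 2 transgene comparisons use separate libraries.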

How the data were processed

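Raw UMI counts per gene and barcode of 14 libraries were used as deposited; per the submitters' processing notes, the authors made them with Cell Ranger on mm10 and also used Seurat and DESeq2, and per the file headers the Cell Ranger version was 3.0.2. Barcodes needed 500 genes, 1000 UMIs and at most 15% mitochondrial UMIs. The barcodes with the highest Scrublet scores were removed as doublets. Their share was preset at 0.8% per 1000 barcodes (2.47 to 9.89% per library) and was not detected from the scores. Cells were clustered without integration (scanpy 1.11.5: 2000 variable genes, 30 components, 15 neighbours, Leiden resolution 1.0), and clusters were named from fixed marker lists. Per class, the counts of each library's cells were added up and tested with edgeR 4.0.16 in R 4.3.3 (quasi-likelihood, TMM, filterByExpr, all 4 groups in 1 fit, Benjamini-Hochberg adjustment over all genes, threshold 0.05); the standard error is the fold divided by the root of F. Classes with under 20 cells in any library in the main setting were not tested, and this rule was not applied again in the alternatives. With the mitochondrial limit of 5% the astrocyte fit used 8 cells in SOD1G93A/Clec7a-KO replicate 4 and 12 in Clec7a-KO replicate 2. The deposited files hold no fold or p-value. On data simulated from these counts, the ependymal, astrocyte and endothelial fits recovered 80, 45 and 71% of genes changed by 1 on the log2 scale for SOD1G93A minus nTg, and 100, 93 and 97% of those changed by 2. The changed genes were drawn only from genes above a minimum mean level. The recovery therefore does not cover tested members of low level, such as ependymal Notch4 and endothelial Hey2. In each fit 100 genes were changed by each size and all others were kept equal between groups. In the data 31.6% of astrocyte genes passed, which makes the adjusted threshold less strict than in the simulation. The simulated recovery therefore does not give the power of the astrocyte fit. Intervals and floors cover counting error only.

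The members and lists were chosen with earlier results of these data known. Named genes are the 10 members, with fold, error and adjusted p for those called in ependymal cells, astrocytes or endothelium and otherwise for the member of lowest p. To these come at most 4 other called pathway genes per class and comparison by lowest p, and the 3 genes most like each member over clusters. Alternatives were DESeq2 1.42.0 (test and size factors), no filter on low counts, a replicate block, covariates for library number and for Xist above Ddx3y, each library left out, resolution 0.5, clustering without the members, a mitochondrial limit of 5% and doublets returned. Added after the data were seen were a covariate for libraries 1 to 4, the fits without the low-depth astrocyte cluster and without 1 microglial cluster, the list of 16 dissociation-induced genes, and the endothelial deciles. Annotation matched 54587 of 55335 gene identifiers.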

Additional observations from a re-analysis of the deposited data

Results flagged for a closer look

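The level of each member was examined in groups of 4 libraries for 1 library far from the other 3 (50 groups, of which chance would mark about 1 in 20), and 2 were marked. Notch4 in astrocytes was at 0 CPM (0 UMIs) in SOD1G93A/Clec7a-KO replicate 4, the library with 34 astrocytes, and at 8.84 to 9.90 CPM in the other 3 libraries of that group. Its floor was 19.8 CPM (3 UMIs), above those values, so its 0 does not separate it from them. Jag1 in endothelium was at 82.4 CPM (1015 UMIs) in Clec7a-KO replicate 2 and at 53.9 to 57.2 CPM in the other 3.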

How the results depend on the processing

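Over all alternatives other than leaving out a library, 286 counts of called genes stayed within 1.5 times and 20 did not. The 286 include counts that were 0 in the main fit and stayed at 0, which could not lose a call. All endothelial counts and all counts for loss of Clec7a were 0 in the main fit. Fold changes were tallied for the named genes in their named comparisons, with Jag1 and Hes1 in microglia and Hes1 in OPC. Of these, 333 kept their direction and side of the threshold, 35 lost the call and 1 changed sign. The 333 include genes that were never called, and fits in which a gene was not tested are left out. Astrocyte Hes5 in the transgene comparisons is outside this tally, and its first fold changed sign without the low-depth cluster. The count of members called in ependymal cells for SOD1G93A minus nTg was 1 and became 0 with the Xist covariate. For SOD1G93A/Clec7a-KO minus Clec7a-KO it was 1 and became 2 with no filter, 2 with doublets returned, 0 with libraries 1 to 4 as covariate, and 0 to 1 without 1 library. In astrocytes the count for SOD1G93A minus nTg was 4 and became 2 with the Xist covariate, 1 with a mitochondrial limit of 5%, 2 with doublets returned, 1 without the low-depth cluster, and 2 to 5 without 1 library. For SOD1G93A/Clec7a-KO minus Clec7a-KO it was 4 and became 1 with the mitochondrial limit, 1 without the low-depth cluster, and 2 to 5 without 1 library. The 1 member called with the mitochondrial limit was Hes5 in both comparisons, while Hes1, Notch1 and Notch2 lost the call and Jag1 was not tested. Of the other pathway genes, 13 were called in astrocytes for SOD1G93A minus nTg, and this became 8 with the Xist covariate, 4 with the mitochondrial limit, 1 without the low-depth cluster and 6 to 14 without 1 library (6 without SOD1G93A replicate 3). The 12 of SOD1G93A/Clec7a-KO minus Clec7a-KO became 5 with the mitochondrial limit, 3 without the low-depth cluster and 9 to 14 without 1 library. From 0, 1 ependymal pathway gene was called for SOD1G93A/Clec7a-KO minus Clec7a-KO with doublets returned, and 1 each for SOD1G93A/Clec7a-KO minus SOD1G93A and Clec7a-KO minus nTg with no filter. From 0, 1 endothelial pathway gene was called for SOD1G93A minus nTg with no filter and 1 with the replicate block. Notch2 in astrocytes for Clec7a-KO minus nTg, never called, changed sign with the mitochondrial limit (-0.0079). The cause was not tested in any of these.

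The replicate numbers did not pair the libraries by the labels, and in 2 of 12 class and comparison checks every pair correlated above 0.1 (endothelium SOD1G93A minus nTg, 0.215 to 0.344, and astrocytes SOD1G93A/Clec7a-KO minus Clec7a-KO, 0.142 to 0.444). The correlation was best with the same number for 3 of 3 libraries in the first of these and 1 of 4 in the second. With the replicate block astrocyte Hes5 for SOD1G93A/Clec7a-KO minus Clec7a-KO gained the call (-1.44), as did microglial Notch2 in both transgene comparisons (-0.56 and -0.50), and microglial Dll4 and Notch3 for the second lost it. No other member's call changed: ependymal Hes1 was -1.35 and -0.89, and astrocyte Jag1 -1.90 and -2.47. The depth limits astrocyte Jag1 and Hes5 in SOD1G93A/Clec7a-KO replicate 4, which held 0 and 1 UMI. All 90 class levels compared across clusterings and the mitochondrial limit moved by less than 1 SD. That SD is over all 14 libraries and includes the differences between groups, so levels within a group can move further. With the mitochondrial limit astrocyte Hes5 was at 58.9, 108.9 and 120.3 CPM (not TMM-scaled) in nTg, each above that library's main level given earlier.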
